A study of Mus musculus with 20 samples.

Results

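The genes examined were 6 channel genes of the heartbeat, namely the sodium channel genes Scn7a and Scn4b, the hyperpolarization-activated (HCN) channel genes Hcn2 and Hcn4, and the T-type calcium channel genes Cacna1g and Cacna1h. They were chosen by name, with earlier results of these data known, and are 6 of the 23420 genes counted by RNA-seq of mouse hearts. The study asked how iron-deficiency anemia alters gene expression in the heart. The hearts came from 10 control mice and 10 mice with the anemia (IDA mice), all wild-type C57BL/6 males (C57BL/6J in the study's methods) aged 9 weeks. Both groups ate their diet for 6 weeks from 3 weeks of age, the IDA mice an iron-deficient diet and the control mice a control diet, and the labels state the iron content of the deficient diet in contradictory ways. RNA was taken from a portion of the pulverized whole heart, so atria, ventricles, conduction tissue, nerves and vessels were measured together, and a change in the number of cells of a type cannot be told apart from a change in RNA per cell. The labels number the mice within each diet but do not mention litters or cages.

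Voltage-gated sodium channels carry the inward current of the cardiac upstroke. Each has a pore-forming alpha subunit and beta subunits that tune its gating. HCN channels open on hyperpolarization, carry the funny current and are bound by cyclic AMP. Hcn4 is the main isoform of the sinus node, and Hcn2 is the more widespread isoform of working myocardium. T-type calcium channels open at low voltages, contribute to late diastolic depolarization in the node, and are also found in nerves and vessels.

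Read-pair totals ran from 6797180 to 8960688 in control hearts (median 7902932) and from 6682177 to 7833916 in IDA hearts (median 6806177), and the groups differed in depth (two-sided permutation test, p = 0.00944). Levels are given as CPM, counts divided by TMM-scaled library size, and a gene was tested where it reached 1 CPM in at least 10 mice, which 13590 genes did. Cardiomyocyte transcripts were abundant in both groups, as for Myh6 at 1365 ± 124 CPM in control and 1427 ± 126 CPM in IDA hearts. The 5 thymus and lung markers summed to at most 0.735 CPM in any control and 1.12 CPM in any IDA heart. Log2 fold changes followed the exonic length of genes across the whole transcriptome, with a median of 0.34 in the decile of shortest genes (median length 881 bp) and -0.53 in the decile of longest genes (7761 bp). Per mouse, the slope of expression on length ran from 0.02 to 0.20 log2 units per doubling of length in control and from -0.25 to -0.03 in IDA hearts, so the groups did not overlap. Fold changes also followed GC content, from a median of -0.30 in the decile of genes poorest in GC to 0.29 in the richest. Since 3 of the 6 genes are in the decile of longest genes and 4 are in the decile richest in GC, the values of these 6 are also given after a smooth curve on length, and then on length and GC, was removed from each mouse, and the text says where a correction changed the call of another channel gene, partner or factor that it names. For cell type markers only the length correction was examined. What set these trends was not tested.

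Of the 6 channel genes, 4 were lower in IDA hearts and 1 was higher at an adjusted p below 0.05 (edgeR's quasi-likelihood test, Benjamini-Hochberg over all tested genes). Scn7a, Scn4b, Hcn4 and, by a small margin, Cacna1g fell, Hcn2 rose, and Cacna1h did not pass the test. The call for Cacna1g did not hold under a length correction, where its sign turned. Across all tested genes, 32.5% were called lower and 35.0% higher, so a call by itself sets few genes apart in these hearts. The 10 IDA values and 10 control values did not overlap for 2 of the 6, Scn7a (lower) and Hcn2 (higher), against 6.28% of tested genes that were lower and 4.97% that were higher without overlap. After the length correction, 3 of the 6 were lower (23.5% of tested genes) and 3 higher (31.5%). After the length and GC correction, Scn4b, Hcn4 and Hcn2 were called, 3 of the 6 (46.8% of tested genes).

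**Figure D1:**
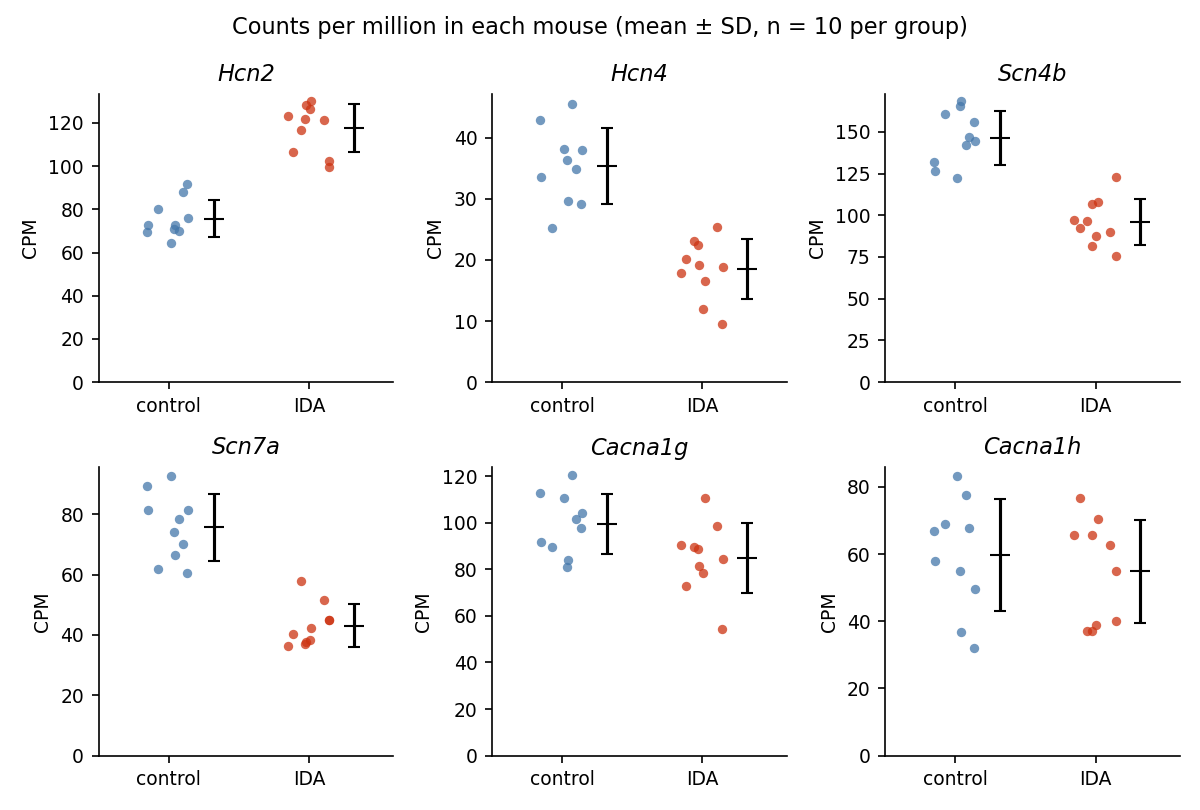
CPM of the 6 channel genes in each heart, with 1 point per mouse and bars for mean ± SD (n = 10 per group). Hcn2 was above every control mouse in all 10 IDA mice, Scn7a was below every control mouse in all 10, Hcn4 and Scn4b were below in 9, and the Cacna1g and Cacna1h groups overlapped.

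The HCN pair moved in opposite directions. The gene bodies lie on mm10 at chr10:79716634-79736108 (Hcn2, plus strand, 3195 bp of exon) and chr9:58823512-58860955 (Hcn4, plus strand, 3798 bp of exon). Their promoters are printed because this pair differed most clearly between the diets. Each window holds 250 bases before and 50 after the RefSeq start (GRCm38.p6, plus strand, chr10:79716384-79716683 for Hcn2 and chr9:58822699-58822998 for Hcn4), 5′ to 3′, and capitals mark GC boxes (GGGCGG on either strand), letters that Sp-family factors can bind.

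Hcn2: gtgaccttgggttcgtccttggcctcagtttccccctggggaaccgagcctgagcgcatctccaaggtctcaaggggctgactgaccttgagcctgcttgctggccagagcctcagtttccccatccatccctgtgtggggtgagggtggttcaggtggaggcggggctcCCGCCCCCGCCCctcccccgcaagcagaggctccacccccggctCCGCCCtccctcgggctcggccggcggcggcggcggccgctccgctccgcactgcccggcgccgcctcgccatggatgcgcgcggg
Hcn4: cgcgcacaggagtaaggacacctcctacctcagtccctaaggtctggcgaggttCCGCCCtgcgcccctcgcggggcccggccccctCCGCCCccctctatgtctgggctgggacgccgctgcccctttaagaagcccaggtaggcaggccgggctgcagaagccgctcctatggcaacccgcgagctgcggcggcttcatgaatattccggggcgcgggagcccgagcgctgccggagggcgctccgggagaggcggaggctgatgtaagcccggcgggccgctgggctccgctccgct

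The Hcn2 window holds 3 GC boxes and is 72.3% GC, and the Hcn4 window holds 2 and is 71.7% GC. At least 1 GC box was present in 35.7% of the 32851 mouse promoter windows of this length. The core of the hypoxia response element, ACGTG on either strand, was found in 19.6% of all windows and in 0 of the 4 windows given for these channel genes (Scn7a, Scn4b, Hcn2 and Hcn4). These are matches of letters and say nothing about binding. Cacna1g and Cacna1h had no entry among the windows used.

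Hcn2 encodes an HCN isoform of working myocardium and of neurons. Its level lay between 64.5 and 91.6 CPM in control hearts, with a median of 72.8 CPM, and between 99.7 and 130.3 CPM in IDA hearts, with a median of 121.4 CPM. Every IDA mouse was above the highest control mouse. The mean count was 582.2 in control and 845.7 in IDA hearts, despite the smaller IDA libraries. Hcn2 rose 1.55-fold (log2 fold change 0.64 ± 0.06 SE; edgeR, adjusted p = 1.71e-07), and 2.73% of tested genes had a higher log2 fold change. Genes of its length decile had a median log2 fold change of 0.00, and the increase was 0.72 after the length correction (edgeR, adjusted p = 3.66e-07). At 65.4% GC, Hcn2 belonged to the GC-richest decile, and with GC also removed the increase was smaller, 0.38 (edgeR, adjusted p = 3.2e-06).

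Hcn4 encodes the principal HCN isoform of the sinus node and of the embryonic heart. In control hearts it ranged from 25.2 to 45.4 CPM around a median of 35.6 CPM, and in IDA hearts from 9.49 to 25.4 CPM around a median of 19.1 CPM. Of the 10 IDA mice, 9 were below the lowest control mouse, and the highest IDA mouse (replicate 7) lay just above that control mouse. Hcn4 fell 1.92-fold (log2 fold change -0.94 ± 0.14 SE; edgeR, adjusted p = 4.05e-06), and 3.58% of tested genes had a lower log2 fold change. The median of its length decile was -0.12, and neither correction moved Hcn4 far, to -0.78 for length (edgeR, adjusted p = 1.95e-05) and -0.98 for length and GC (edgeR, adjusted p = 5.41e-06). This was the opposite of genes with a similar GC content, whose median log2 fold change was 0.29. The corrections remove only the trend at a gene's own length and GC. Within each group Hcn4 tended to be higher in mice with a higher slope on length. It was at 25.2 CPM in control replicate 2 (slope 0.02) and 42.85 CPM in control replicate 4 (0.20). IDA replicates 1 (slope -0.25) and 7 (-0.03) were at 11.9 and 25.4 CPM. The part of this library trend in the fall of Hcn4 was not tested.

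Sinus node and atrial markers were set beside Hcn4. Of 6 sinus node markers, 3 passed the filter and 1 of these, Tbx18, a factor of the node's head, was lower (log2 fold change -0.81; edgeR, adjusted p = 2.26e-06), while Tbx3 and Smoc2 were not called, and Tbx3 was higher after the length correction (0.26). Shox2 (0.749 ± 0.460 CPM in control and 0.248 ± 0.129 CPM in IDA hearts) and Isl1 (0.0418 and 0.0823 CPM), which define the node, were near 0 in both groups. The sinus node markers, mostly Smoc2, summed to 218.8 to 272.2 CPM per control heart and 224.9 to 241.3 CPM per IDA heart. Of 5 tested atrial markers, none was lower and 1, Nppa, was higher (0.33, but 0.01 and not called after the length correction). Bmp10, a further atrial marker below the filter, varied widely between hearts (10.3 ± 22.0 CPM in control and 11.8 ± 22.0 CPM in IDA hearts). The sums of all 6 atrial markers overlapped, at 269 to 652 CPM in control and 270 to 867 CPM in IDA hearts. The part of tissue sampling in the fall of Hcn4 was not tested.

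The ratio of Hcn2 to Hcn4 within a heart needs no scaling between libraries. It ran from 1.54 to 3.19 in control hearts (median 2.08) and from 4.78 to 10.8 in IDA hearts (median 6.04). All 10 IDA mice were above the highest control mouse. The mean log2 ratio was 1.11 ± 0.37 (SD, n = 10) in control and 2.70 ± 0.43 (SD, n = 10) in IDA hearts, a difference of 1.59 ± 0.18 (SE; two-sided permutation test, p = 2e-05, the smallest that the resamples can give; adjusted p = 4e-05 over 2 ratios). The difference was 1.51 after the length correction and 1.38 after the length and GC correction. Within each group the ratio tended to be larger in mice with a lower slope of expression on length. At the extremes of slope, the log2 ratio was 1.66 in control replicate 2 (slope 0.02) and 0.69 in control replicate 4 (0.20). It was 3.38 in IDA replicate 1 (slope -0.25) and 2.24 in IDA replicate 7 (-0.03). The part of this library trend in the difference between the groups was not tested. Column names carry library numbers in a low and a high run, whose meaning is not stated, and the difference was 1.70 within the low run (5 control, 7 IDA mice) and 1.5 within the high run (5 control, 3 IDA mice).

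**Figure D2:**
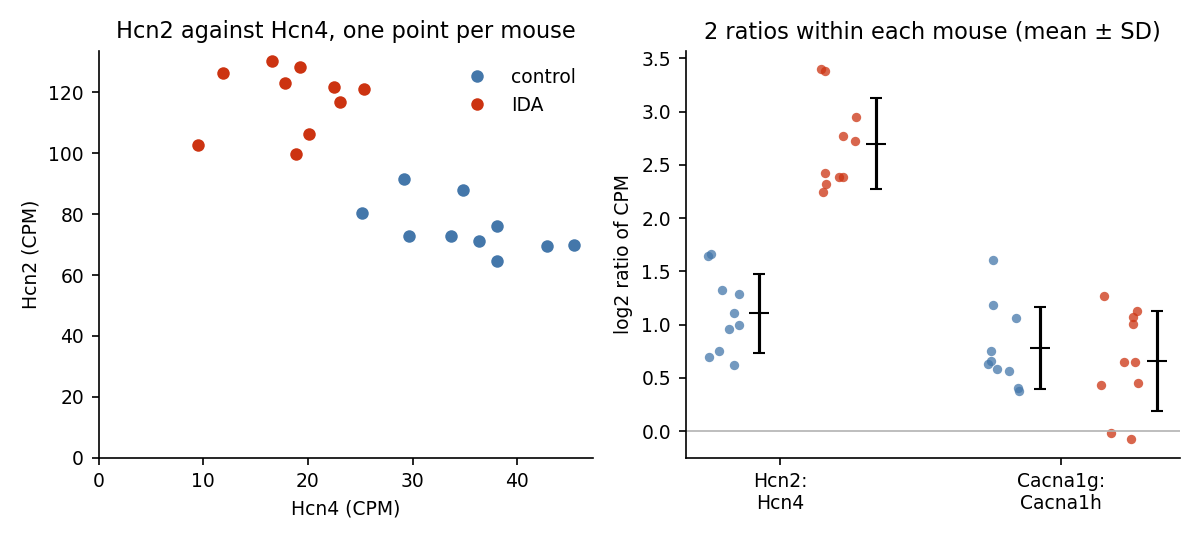
Left, Hcn2 against Hcn4 in CPM, 1 point per mouse; right, log2 ratios of CPM within each mouse for 2 gene pairs, with mean ± SD (n = 10 per group). The Hcn2 to Hcn4 ratio separated the groups completely, at 1.54 to 3.19 in control and 4.78 to 10.8 in IDA hearts, whereas the Cacna1g to Cacna1h ranges overlapped, with 2 IDA mice below the lowest control mouse.

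Hcn3, a further HCN gene, stayed below the filter, at mean levels of 0.399 CPM in control and 0.376 CPM in IDA hearts. Of 10 tested genes known to bind or regulate HCN channels, 3 were lower and 3 higher, with a median log2 fold change of -0.03 beside 0.02 over all tested genes. Lower were Mrvi1 (-0.22), a modulator of HCN4, Kctd3 (-0.14), a partner of HCN3, and the ubiquitin ligase Nedd4l (-0.14), and higher were caveolin-3 (Cav3, 0.40) and the cyclic AMP-binding Popeye proteins Popdc3 (0.25) and Popdc2 (0.16). Under the length correction Mrvi1 (0.17; edgeR, adjusted p = 0.0273) and Nedd4l (0.40; edgeR, adjusted p = 9.86e-06) were called higher, and Kctd3 (0.00) was not called. Nedd4l was still called higher after the length and GC correction (0.50; edgeR, adjusted p = 2.86e-06), where Mrvi1 (0.10) and Kctd3 (-0.06) were not called. None of the 3 genes that were higher without correction was called there, at -0.04 for Cav3, 0.09 for Popdc3 and -0.03 for Popdc2. Popdc2 was also not called after the length correction alone (0.09).

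Scn4b encodes the beta-4 subunit, a single-pass membrane protein linked to resurgent sodium current. It lies on mm10 at chr9:45139042-45154061 (plus strand, 4244 bp of exon). Control hearts held 122.3 to 168.3 CPM with a median of 145.6 CPM, and IDA hearts 75.5 to 122.9 CPM with a median of 94.2 CPM. The groups met at their edges, since 9 of the 10 IDA mice were below the lowest control mouse and all 10 were below the control mean. Scn4b fell 1.53-fold (log2 fold change -0.61 ± 0.08 SE; edgeR, adjusted p = 6.38e-07). Its length decile had a median of -0.20, and the decrease was -0.40 after the length correction (edgeR, adjusted p = 0.000251) and -0.53 after the length and GC correction (edgeR, adjusted p = 1.29e-05).

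Of the other beta subunit genes, Scn2b (2.94 ± 0.50 and 2.65 ± 0.70 CPM) and Scn3b (2.95 ± 0.59 and 3.75 ± 1.59 CPM in control and IDA hearts) were scarce and not called. Scn3b was called higher after the length correction (0.61; edgeR, adjusted p = 0.0145) and after the length and GC correction (0.67; edgeR, adjusted p = 0.00948).

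Scn7a encodes Nax, an atypical alpha subunit that responds to extracellular sodium rather than to voltage and is known from glia, Schwann cells and neurons. It lies on mm10 at chr2:66673426-66784910 (minus strand, 7333 bp of exon, 40.2% GC). Control hearts ranged from 60.4 to 92.8 CPM with a median of 76.3 CPM, and IDA hearts from 36.2 to 57.8 CPM with a median of 41.3 CPM. All 10 IDA mice were below the lowest control mouse. Mean counts were 583.9 in control and 312.0 in IDA hearts. Scn7a fell 1.75-fold (log2 fold change -0.81 ± 0.09 SE; edgeR, adjusted p = 3.15e-07).

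Genes of like length and base composition were also lower on average. Genes in its length decile had a median log2 fold change of -0.53, and 20.8% of them had a lower value than Scn7a. Its GC decile, the poorest, had a median of -0.30. The decrease was -0.33 after the length correction (edgeR, adjusted p = 3.16e-05) and -0.12 after the length and GC correction, where it no longer passed the test (edgeR, adjusted p = 0.0542). Within the low and high runs of library numbers the uncorrected log2 fold change was -0.82 and -0.86.

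Nerve-associated markers did not all move with Scn7a. Of 8 tested Schwann cell markers, 2 were lower, namely Cdh19 (log2 fold change -1.64) and Kcna1 (-0.98), and 6, including Sox10 and Mbp, were not called, while after the length correction 2 were lower and 2 higher. The Schwann cell markers summed to 56.82 to 87.97 CPM per control heart and 45.2 to 74.4 CPM per IDA heart. The 3 tested neuronal markers, Uchl1, Stmn2 and Dbh, were all higher (0.94, 0.68 and 0.55), while Chat was at 0 in every heart and Th, Prph, Slc18a3 and Snap25 were below the filter. All 8 neuronal markers summed to 51.6 to 62.2 CPM in control and 78.9 to 107.4 CPM in IDA hearts. Among 7 fibroblast markers, Pdgfra was lower (-0.71) and Col1a1 and Gsn were higher (2 lower and 3 higher after the length correction), and their sums overlapped, at 1579 to 1851 CPM in control and 1647 to 1855 CPM in IDA hearts. The part of these cell types in the fall of Scn7a was not tested.

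Of 8 other alpha subunit genes examined, 4 were tested, 3 were lower and 0 were higher. Their median log2 fold change was -0.77, and their median exonic length was 7644 bp. Scn3a, a neuronal alpha subunit, fell from 5.63 ± 2.20 to 1.68 ± 0.73 CPM (log2 fold change -1.76; edgeR, adjusted p = 2.13e-06) and was still lower after the length and GC correction (-0.97). Scn4a, the skeletal muscle alpha subunit, fell from 95.3 ± 7.34 to 66.0 ± 12.8 CPM (-0.53), and Scn2a1, a neuronal one, from 1.46 ± 0.74 to 0.714 ± 0.277 CPM (-1.02), and neither was called after the length correction, although Scn4a was again lower after the length and GC correction (-0.24). Scn10a, an alpha subunit of sensory and intracardiac neurons, was at 7.42 ± 2.03 and 8.87 ± 2.60 CPM and was not called (edgeR, adjusted p = 0.23), but it was called higher after the length correction (0.67; edgeR, adjusted p = 0.00476) and after the length and GC correction (0.58; edgeR, adjusted p = 0.0132). Scn1a, Scn8a, Scn9a and Scn11a were below the filter.

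Of 15 tested partners of sodium channels, 7 were lower and 2 higher, with a median log2 fold change of -0.14. Among the lower ones were the syntrophin gene Sntb1 (-1.75), the fibroblast growth factor homolog Fgf14 (-0.76), which binds the channel's C-terminus, and ankyrin-G (Ank3, -0.59), which anchors the channel. Ank3 was at 0.05 after the length correction and was called higher after the length and GC correction (0.10), where Fgf14 was not called (-0.41). Cav3 (0.40) and Rangrf (0.29), which promotes trafficking of the channel, were higher, but Rangrf was at -0.05 after the length correction and Cav3 at -0.04 after the length and GC correction, and neither was called there. After the length correction, 4 of the 15 were lower and 4 higher.

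Cacna1g encodes Cav3.1, the T-type isoform most closely tied to the node. It lies on mm10 at chr11:94408391-94474198 (minus strand, 8223 bp of exon, 58.1% GC). Control hearts ranged from 81.1 to 120.6 CPM with a median of 99.6 CPM, and IDA hearts from 54.6 to 110.5 CPM with a median of 86.6 CPM. The groups overlapped widely, with 3 IDA mice below the lowest control mouse. The log2 fold change was -0.23 ± 0.09 (SE; edgeR, adjusted p = 0.0343), a 1.17-fold decrease that was smaller than the median decrease of genes of its length (-0.53). After the length correction the sign turned, to 0.30 (edgeR, adjusted p = 0.00684), and after the length and GC correction the value was 0.090 (edgeR, adjusted p = 0.39). The adjusted p ranged from 0.00477 to 0.104 over 100 fits that each left out 1 mouse of each group.

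Cacna1h encodes Cav3.2, an isoform of the fetal heart, of vessels and of sensory neurons. It lies on mm10 at chr17:25374287-25433783 (minus strand, 8228 bp of exon) and shares 156 bases with Tpsg1 on the opposite strand, whose reads cannot be told apart because counting ignored strand. The range was 31.9 to 83.4 CPM in control hearts (median 62.4 CPM) and 37.0 to 76.7 CPM in IDA hearts (median 58.9 CPM), and 5 IDA mice were below and 5 above the control mean. The log2 fold change of -0.12 ± 0.17 (SE) did not pass the test (edgeR, adjusted p = 0.54). After the length correction it was 0.42 (edgeR, adjusted p = 0.0277), and 0.17 after the length and GC correction (edgeR, adjusted p = 0.37). The ratio of Cacna1g to Cacna1h was 1.30 to 3.06 in control hearts (median 1.56) and 0.948 to 2.42 in IDA hearts (median 1.57), and its log2 value did not differ detectably (difference -0.12 ± 0.19 SE; two-sided permutation test, p = 0.521). The third T-type gene, Cacna1i, was below the filter, at mean levels of 0.330 CPM in control and 0.372 CPM in IDA hearts.

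**Figure D3:**
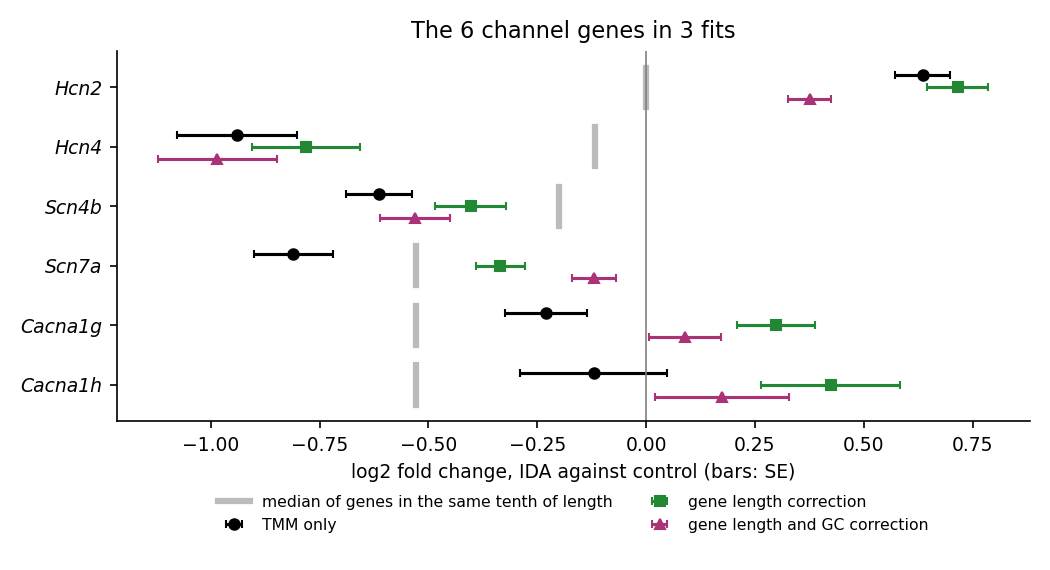
Log2 fold change (IDA against control, bars for SE) of the 6 channel genes without correction, after the gene length correction and after the length and GC correction, with gray marks for the median of genes in the same decile of exonic length. Hcn2 stayed above 0 and Hcn4 and Scn4b below 0 in the 3 fits, Scn7a moved from -0.81 to -0.12, and Cacna1g and Cacna1h changed sign.

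**Figure D4:**
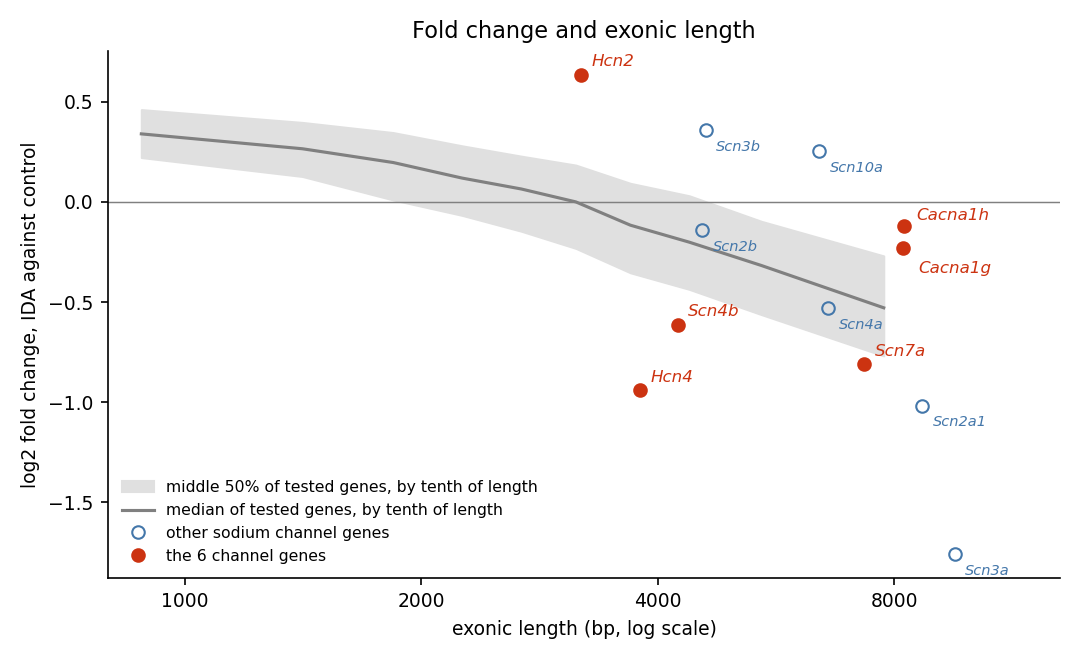
Log2 fold change against exonic length (bp, log scale) for the 6 channel genes (filled) and other tested sodium channel genes (open), with the median and the middle 50% of tested genes in each decile of length. The median falls from 0.34 to -0.53 with length, Hcn2 lies above the band, Hcn4, Scn4b and Scn7a lie below it, and Cacna1g and Cacna1h lie just past its right end and above its edge there.

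The L-type channel complex, through which most calcium enters the myocyte, had 12 tested subunit genes, of which 5 were lower and 2 higher, with a median log2 fold change of -0.29. Cacna2d1 (-0.80), Cacna1d (-0.66), a further pacemaker channel of the node, and Cacna1c (-0.53), the main ventricular pore, were lower, and the beta subunits Cacnb3 (0.52) and Cacnb1 (0.26) were higher. Cacna1c was at 0.04 and Cacna1d at -0.07 after the length correction, and 2 of the 12 were then lower and 3 higher. After the length and GC correction Cacna2d1 (-0.11) and Cacnb1 (-0.01) were not called. Among 4 tested connexins, which couple myocytes electrically, Gja1 of the ventricle was lower (-0.23, but 0.02 after the length and GC correction), and Gja5 of the atria and conduction system (0.49) and Gja4 of vessels (0.49) were higher, of which Gja4 was not called after the length and GC correction (0.10).

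Of 20 tested transcription factors of conduction and pacemaker tissue, 7 were lower and 5 higher, with a median log2 fold change of -0.02. Rest, a repressor of neuronal and fetal cardiac genes, fell from 21.0 ± 6.14 to 6.45 ± 2.84 CPM (-1.70; edgeR, adjusted p = 9.9e-07) and was at -1.42 after the length and GC correction. Mef2a (-1.50) and Tbx18 (-0.81) were also lower, and Nkx2-5 (0.50), Irx3 (0.37) and Id2 (0.24) were higher, of which Nkx2-5 was at -0.07 and Irx3 at 0.03 after the length and GC correction and Id2 at 0.00 after the length correction, none of them called there. Tbx3 (-0.04) and Tbx5 (-0.02), which pattern the node and the conduction system, were not called, although Tbx3 was called higher after the length correction (0.26; edgeR, adjusted p = 0.00539) and not after the length and GC correction (0.14).

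Levels were compared between genes as CPM per kb of exon. Neither the length nor the GC correction was applied, so the trends that differed between the groups enter the order of genes in each. In control hearts Scn4b was at 34.5 ± 3.8 and Hcn2 at 23.7 ± 2.68 CPM per kb, followed by Scn4a (14.4 ± 1.11), Cacna1g (12.1 ± 1.57), Scn7a (10.3 ± 1.5), Hcn4 (9.30 ± 1.64) and Cacna1h (7.25 ± 2.03). Ranges of neighbors overlapped in that order except between Scn4b and Hcn2, between Hcn2 and Scn4a, and below Cacna1h. In IDA hearts Hcn2 (36.8 ± 3.43) stood above Scn4b (22.6 ± 3.26) without overlap, and the order below them was Cacna1g (10.3 ± 1.83), Scn4a, Cacna1h (6.68 ± 1.87), Scn7a (5.88 ± 0.95) and Hcn4 (4.87 ± 1.29). Neighbors among those last 5 overlapped.

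**Figure D5:**
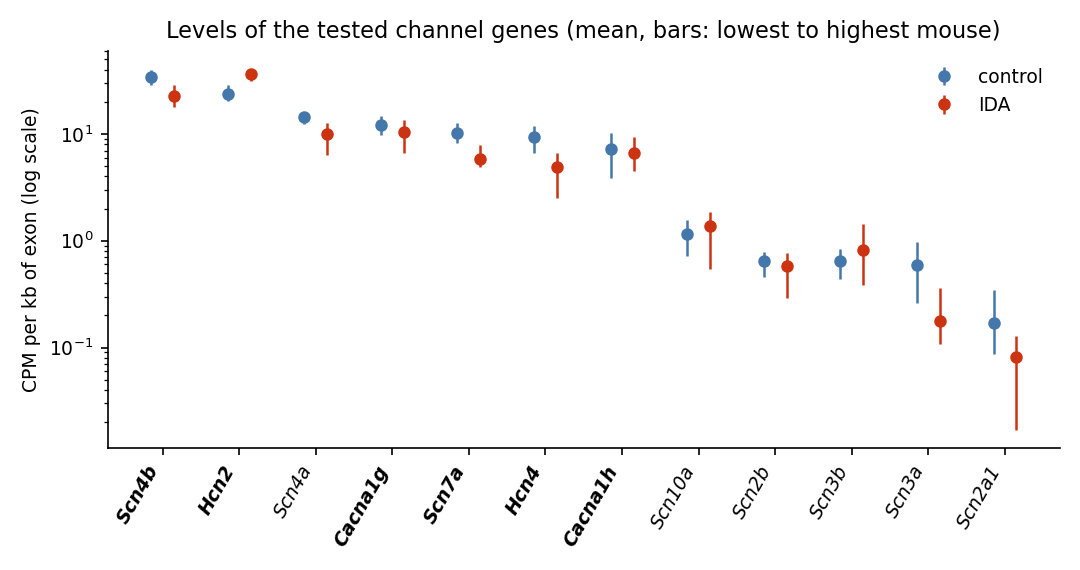
Level of 12 tested sodium, HCN and T-type genes in CPM per kb of exon (log scale), as group means with bars from the lowest to the highest mouse (n = 10 per group). Hcn2 was at 23.7 CPM per kb in control and 36.8 CPM per kb in IDA hearts, against 34.5 and 22.6 CPM per kb for Scn4b.

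Within groups, mice also varied together in these genes. For each channel gene, the tested genes most like it were found by Pearson's r over the 20 mice of log2 CPM after the group means were removed, as a description that shared depth and length trends enter. Hcn4 varied most like Dip2c (r = 0.93), Ppargc1a (0.93), a coactivator of mitochondrial genes, and Nt5c1a (0.92). Scn7a varied most like Dicer1, Nfat5 and Fndc3a (each 0.90), which are 6136 to 13443 bp long. The closest genes were Plod1 (0.81) for Hcn2, Riok3 (0.77) for Scn4b and 1700073E17Rik (0.81) for Cacna1h, and Scara5 and Ankrd63 (each 0.84) were among the closest for Cacna1g.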

How the data were processed

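Per the study's methods, poly(A)-selected RNA was sequenced as 75 bp read pairs, aligned to mm10 with STAR, and freed of PCR duplicates. The authors deposited raw counts of read pairs per gene from featureCounts (version 1.4.5-p1, per the file header; unstranded), with exon positions and exonic lengths, for 23420 genes. Among the names, 27 had become dates and 2 were repeated, and they were kept as given. The authors excluded 1 mouse per group for contamination without naming it, so all 20 were kept.

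Counts of 10 control and 10 IDA mice were tested with edgeR 4.0.16 (R 4.3.3; TMM scaling, quasi-likelihood test, adjusted p below 0.05) on genes that reached 1 CPM in 10 or more mice; DESeq2 1.42.0 was an alternative. Log2 ratios used a prior count of 2 and 100000 permutation resamples. Corrections used loess curves (span 0.5) on log2 exonic length and GC content (known for 99.2% of tested genes), as offsets. GC content was that of the longest GENCODE transcript under a gene's name or synonym, not of the counted exons. Promoter windows came from RefSeq (GRCm38.p6), which had entries for 4 of the 6 genes. Scripts were tested on simulated data. The 6 genes and all lists were chosen with earlier results of these data known. In each list, all measured channel genes were named, or up to 3 called genes per direction with the largest log2 fold change, plus Rest, Tbx3, Tbx5, Cacna1c, Cacna1d, Gja1 and Gja5 whatever their values, and genes among the 3 tested ones most correlated with each channel gene. A few genes of these lists, and ratios to 1 of them, are not reported here. Settings tried were DESeq2 and upper-quartile scaling, no filter, p below 0.01 in both packages, both corrections, library size, replicate number and library-number run as covariates, and leaving mice out. P-values weigh the difference between the groups against the variation between these mice. They do not tell diet apart from the depth and length trend, which also differed between the groups.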

Additional observations from a re-analysis of the deposited data

Results flagged for a closer look

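In 6 of the 82 gene and group combinations examined (each with 10 mice), the highest mouse stood apart from the next by a share of the group's range above Dixon's critical value. Chance gives about 1 in 20 such cases. None was a group of the 6 channel genes. Among IDA mice, Scn3a was at 3.424 CPM in replicate 7 (next 2.213 CPM), and so was Cacna1c at 530.4 CPM in replicate 7 (next 399.6 CPM). Cacnb1 reached 30.71 CPM in IDA replicate 4 (next 23.23 CPM). Tbx5 was at 120.2 CPM in IDA replicate 3 (next 92.11 CPM) and at 107.0 CPM in control replicate 9 (next 90.38 CPM). Nkx2-5 was at 102.6 CPM in control replicate 5 (next 91.26 CPM).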

How the results depend on the processing

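Across 12 alternative settings, Scn4b (log2 fold change -0.68 to -0.40), Hcn2 (0.38 to 0.72) and Hcn4 (-0.98 to -0.78) kept their direction and call. Scn7a did so in 11 and lost its call under the length and GC correction (-0.12, adjusted p = 0.0542). Cacna1g lost its call at p below 0.01 in both packages (-0.23), with library size as a covariate (-0.21, adjusted p = 0.155) and in the low run of library numbers (-0.23, adjusted p = 0.152), and turned sign under the length correction (0.30) and the length and GC correction (0.090). Cacna1h turned to 0.42 and 0.17 under the same corrections. The length correction gave 3 channel genes higher, and the length and GC correction gave 2 lower and 2712 genes lower over all. In the high run of library numbers alone, 2642 genes were higher and 5908 were called, from fewer mice. Splitting by library number and the ratios under the length and GC correction were chosen after seeing the data. In 100 fits without 1 mouse of each group, log2 fold changes ranged from -0.90 to -0.75 for Scn7a, from -0.69 to -0.56 for Scn4b, from 0.59 to 0.69 for Hcn2 and from -1.04 to -0.83 for Hcn4, each called in all 100. Cacna1g ranged from -0.31 to -0.15 and was called in 55, and it lost its call in 8 of the 10 fits without each of control replicates 4, 8, 9 and 10 and IDA replicate 3. Cacna1h ranged from -0.26 to -0.003 and was called in 0. Channel genes called lower numbered 3 to 4 and higher 1, and 8548 to 9359 genes were called. The log2 ratio difference of Hcn2 to Hcn4 ranged from 1.46 to 1.71, and that of Cacna1g to Cacna1h from -0.24 to 0.05. Same-numbered mice of the groups did not clearly deviate together (correlations -0.28 to 0.26, above 0.1 in 3 of 10 pairs). Of the 10 control mice, 3 correlated best with the IDA mouse of their own number. Whether the numbers pair the mice cannot be settled from these values. With the replicate number as a block, 4 channel genes were lower and 1 higher, 8912 genes were called, and Cacna1g was at -0.24 (edgeR, adjusted p = 0.0357). Mean counts of the 6 genes were 132.3 or more in each group, whereas relatives below the filter averaged 3 read pairs or fewer per heart.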

Other observations

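The erythroid transcripts Slc4a1, the red cell anion exchanger, and Alas2, the first enzyme of heme synthesis in red cells, were both higher in IDA hearts, at 2.74 ± 0.84 and 45.1 ± 41.8 CPM for Slc4a1 and 75.9 ± 19.4 and 203.4 ± 80.9 CPM for Alas2 in control and IDA hearts (log2 fold changes 4.04 and 1.42; edgeR, adjusted p = 2.21e-06 and 9.1e-07). Hba-a1 and Hba-a2 had 0 counts in every heart, and Hbb-bs and Hbb-bt had no entry under these names. Whether alpha-globin RNA was absent or its reads went uncounted was not tested. Among 5 endothelial markers, Tek (-0.34), Kdr (-0.27) and Cdh5 (-0.17) were lower and Fabp4 (0.16) was higher, but after the length correction none of the first 3 was called and Fabp4 was lower (-0.19). Of 6 smooth muscle and pericyte markers, Rgs5 (-0.44) and Myh11 (-0.30) were lower and Kcnj8 (0.35) and Acta2 (0.21) were higher. Myh11 was not called after the length correction (0.11), and Pdgfrb was then higher (0.27). Of 4 tested leukocyte markers, Ptprc was lower (-0.49) and Cd79a (1.12) and Cd68 (0.32) were higher, but Ptprc (-0.14) and Cd68 (0.04) were not called after the length correction.

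Of 4 ventricular markers, Irx4, Myl2 and Myl3 were higher (0.19, 0.14 and 0.14), but Myl2 and Myl3 were lower after the length correction (-0.22 and -0.17). Of 7 cardiomyocyte markers, Tnni3 was higher (0.15) and Ttn, the longest, was lower (-0.79), and both turned sign after the length correction (-0.17 and 0.57). After that correction 3 of the 7 were lower and 3 higher. These included Tnnt2 (-0.17) and Myh6 (0.45), which were not called without it. Skeletal muscle markers were scarce in most hearts, and 1 of 2 tested, Mylpf, was higher (0.58), though not after the length correction (0.24). The 6 skeletal muscle markers summed to 2.36 to 5.20 CPM per control heart and 3.23 to 22.4 CPM per IDA heart. Myh4, below the filter, reached 8.22 CPM in an IDA heart and at most 0.248 CPM in a control heart.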
